A study of Mus musculus with 8 samples.

Results

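The proteasome genes were taken as every protein-coding gene of the mouse GENCODE annotation whose symbol begins with Psma, Psmb, Psmc, Psmd, Psme, Psmf or Psmg followed by a digit, which gave 50 of 21951 genes. The proteasome is the large protease of the cytosol and nucleus that degrades proteins tagged with ubiquitin. Its barrel-shaped core is built from rings of alpha (Psma) and beta (Psmb) subunits, and its regulatory cap holds a ring of ATPases (Psmc) and a set of non-ATPase subunits (Psmd) that recognise, strip and unfold substrates. In blood cells and after exposure to interferon, inducible beta subunits replace the constitutive catalytic ones to form the immunoproteasome, which alters the peptides available for presentation to T cells. The 50 genes comprised 8 alpha subunits, 7 constitutive beta subunits, 4 immunoproteasome and thymoproteasome beta subunits, 4 chaperones of core assembly, 6 ATPases and 11 non-ATPases of the cap, 3 chaperones of cap assembly and 6 activators and inhibitors. The last gene, Psmc3ip, matched the naming rule, but its product is a meiotic recombination factor and not a proteasome protein.

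Binding of PU.1, an ETS-family transcription factor, and of CEBPA, a leucine zipper factor, was compared in derivatives of X18.1.1, a murine acute myeloid leukaemia line that arose after irradiation. These cells have lost one Pu.1 allele, and the remaining allele is mutated, with a missense change where the protein contacts DNA and a short deletion in its PEST region. The control line (PU.1−) carried the empty retroviral vector and had only this mutant PU.1, whereas the other line (PU.1+) also carried PuER, wild-type PU.1 fused to a hormone-responsive oestrogen receptor domain. Both lines received 100 nM 4-hydroxytamoxifen (OHT) for 2 h, and each was 1 clone, so a difference between the lines cannot be told apart from a difference between clones. Chromatin was immunoprecipitated with antibodies against PU.1 and CEBPA, with 1 library for each antibody and line. The control line was not free of PU.1 protein, and the antibody reads the mutant and the fusion protein together.

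With the PU.1 antibody, PU.1− gave 5288 peaks and PU.1+ gave 15683, and with the CEBPA antibody the totals were 26119 and 20583, respectively. All peaks were 400 bp wide and came without heights or read counts, so the depth behind each list is unknown, a missing peak does not show that a site was unbound, and no test between the lines was possible. A promoter peak is one with its centre no more than 1000 bp from any transcript start of the gene. A peak was placed at a gene when its centre lay in the gene body or within 20 kb of it. Where an interval in one line shared at least 1 bp with an interval of that antibody in the other, it was counted as shared. Coordinates refer to mm10 (GRCm38).

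A PU.1 promoter peak was called at 12 of the 50 proteasome genes in at least one line (24%, beside 12.1% of all genes). The recognition sequences are printed here for 9 of them, to let the sites of the genes bound in both lines be read beside those bound in one line only. Each line is 30 bases of the peak on the strand of the gene, 5′ to 3′. Capitals mark matches on either strand, within the central 80 bp of the peak, to the ETS core GGAAGT, to its longer forms CCGGAAGT, CAGGAAGT and GAGGAAGT, each of which contains the core, or to GGAANNGAAA, a composite of an ETS site and a site for interferon regulatory factors (IRF). The composite was added after the sequences had been seen. The first pair of genes had a PU.1 peak in both lines, and the sites are those in the PU.1+ peak.
Psmb8: tggctttcgcTTTCACTTCCttgtcgcaga
Psmg3: acggacaggaaCCGGAAGTtctcgccggga

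At the next genes the peak was called only in PU.1+.
Psma5: gtgacggaaagcGGAAGTgctctctagttc
Psma6: gcaccttgaaaACTTCCTCttttggccact
Psma7: gctacatttgTTTCTGTTCCtctcttgatt
Psme1: gtgctttcgcTTTCCCTTCCcgctgcccac

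At the last genes it was called only in PU.1−.
Psmb1: ggcgagggaggcGGAAGTggaccggtcccg
Psmd9: gtgaccccgcccACTTCCaagctccaccct
Psmd13: ggtgCCGGAAGTgagcgagcACTTCCgtgc

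These windows lay at chr17:34198341-34198370 (Psmb8, plus strand), chr5:139826872-139826901 (Psmg3, minus), chr3:108257007-108257036 (Psma5, plus), chr12:55398615-55398644 (Psma6, plus), chr2:180040494-180040523 (Psma7, minus), chr14:55578499-55578528 (Psme1, plus), chr17:15498301-15498330 (Psmb1, minus), chr5:123228158-123228187 (Psmd9, plus) and chr7:140882384-140882413 (Psmd13, plus). The remaining 3 peaks, at Psmb10, Psmd7 and Psmg4, were called only in PU.1− and held none of these sequences in the central 80 bp.

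To ask where in the proteasome the bound genes act, promoter peaks were counted across the functional classes. In PU.1−, a PU.1 promoter peak was called at 8 members (16%, exact 95% interval 7.17 to 29.1%), beside 6.8% of all protein-coding genes. In PU.1+, it was called at 6 members (12%, 4.53 to 24.3%), beside 8.19%. With a limit of 500 or 2500 bp the members in PU.1+ were also 6, beside 5.76% and 12.9% of all genes, so the higher share did not hold at 2500 bp. The genes called in the lines were largely different. Only Psmb8 and Psmg3 had a shared PU.1 peak (2.48% of all genes had one), 6 members had a peak called only in PU.1− (4.51% of all genes) and 4 a peak called only in PU.1+ (6.02%). Thus fewer proteasome promoters had a PU.1 call in PU.1+, where the whole list was longer. The intervals treat genes as independent and describe counting over genes only, not the variation between libraries.

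**Figure D1:**
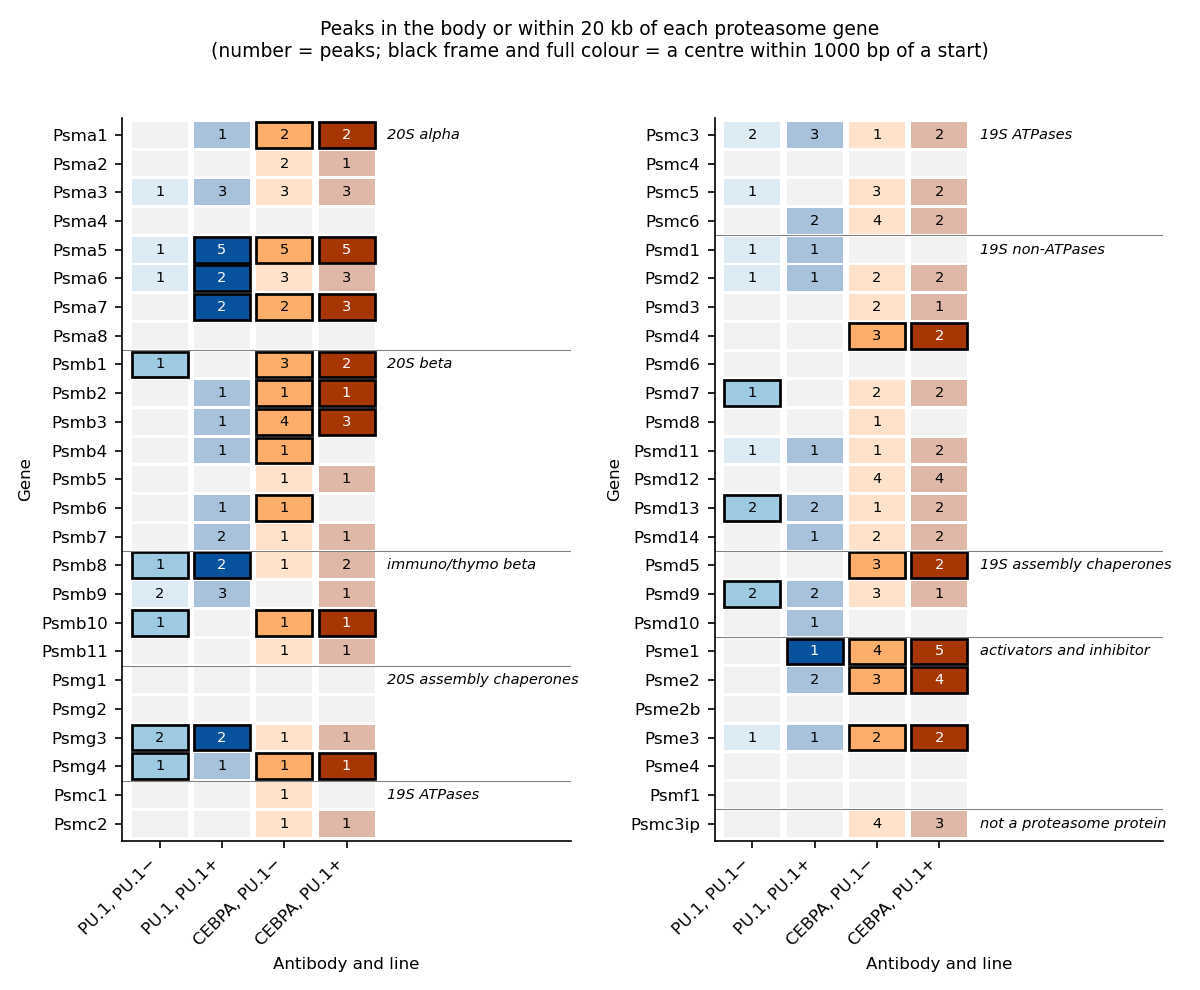
Peaks at each of the 50 proteasome genes, ordered by functional class (rows), for each antibody and line (columns). Numbers give the peaks in the gene body or within 20 kb, grey cells have none, and framed cells in full colour have a centre within 1000 bp of a transcript start. The 6 ATPase genes have no framed cell in any column.

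Among the alpha subunits, which form the outer rings and the gate of the core, PU.1 promoter peaks were called in PU.1+ only. They were at Psma5, Psma6 and Psma7 (3 of 8 genes), whereas 6.02% of all genes had a peak confined to that line. None of the 8 had one in the control line, beside 6.8% of all genes. A class of 8 genes is too small to read a difference from these shares. The Psma5 peak (chr3:108256813-108257212) was centred 87 bp downstream of the start of the gene, in the non-coding part of an exon, and held a GGAAGT site. The Psma6 peak (chr12:55398456-55398855) lay in an intron, 14434 bp into the gene and 119 bp upstream of an internal transcript start, and held GAGGAAGT, the form typical of PU.1. The Psma7 peak (chr2:180040303-180040702) was also intronic, 358 bp upstream of the nearest start and 1930 bp from the 5′ end of the gene. Its central sequence had no GGAAGT but had the ETS and IRF composite. When only the 5′ end of each gene was used as its start, a peak confined to PU.1+ was counted at 2 members instead of 4.

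Among the constitutive beta subunits, PU.1 was called at a promoter only at Psmb1, a non-catalytic subunit, and only in PU.1−. That peak (chr17:15498129-15498528) was centred 10 bp downstream of an internal start, in the non-coding part of an exon and 1422 bp from the 5′ end of the gene, with a GGAAGT site. The genes of the constitutive catalytic subunits, Psmb5, Psmb6 and Psmb7, had no PU.1 promoter peak in either line. Over all genes 12.1% had one in some line, and these genes are too few to read a difference from that share. Among their inducible replacements, which are as few, the calls varied from gene to gene. Psmb8 had a PU.1 peak in both lines, at chr17:34198174-34198573 in PU.1− and chr17:34198154-34198553 in PU.1+. The centres were 20 bp apart, and lay 3 bp and 16 bp upstream of transcript starts, 653 and 633 bp from the 5′ end of the gene. Psmb10 had a PU.1 peak in PU.1− only (chr8:105937871-105938270), 21 bp downstream of a start. Psmb9 had no promoter peak of either antibody, and Psmb11, the beta subunit of the thymic proteasome, had none either.

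None of the 6 ATPase genes, whose products unfold substrates and open the core, had a promoter peak of either antibody in either line, whereas 27% of all genes had one in some list, and 6 genes are too few to read a difference from that share. Of the 11 non-ATPase genes, Psmd7 and Psmd13, both encoding subunits of the lid of the cap, had a PU.1 promoter peak in PU.1− and none in PU.1+. The Psmd7 peak (chr8:107588239-107588638) was centred 19 bp downstream of a start. The Psmd13 peak (chr7:140882214-140882613) was centred 0 bp from a start of Psmd13 and 105 bp from a start of Sirt3, which encodes a mitochondrial deacetylase, so it cannot be given to one gene alone. Its central 80 bp held 2 GGAAGT sites on opposite strands, 1 of them as CCGGAAGT. Psmd9, a chaperone that helps to assemble the ATPase ring, had a PU.1− peak (chr5:123227989-123228388) centred 1 bp from an internal start. That start is also the start of the RefSeq promoter of Psmd9. The peak centre lay 58776 bp from the 5′ end of the gene as annotated in GENCODE.

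Among the chaperones of core assembly, Psmg3 had a PU.1 peak in both lines, at chr5:139826612-139827011 in PU.1− and chr5:139826679-139827078 in PU.1+. The centres lay 67 bp apart, and the CCGGAAGT site fell near the middle of the PU.1+ peak only, although both whole peaks contained it. A start of Gm26938, a predicted gene, lay 405 bp (PU.1−) and 472 bp (PU.1+) from these centres. Psmg4 had a PU.1 peak in PU.1− only (chr13:34162855-34163254), 91 bp downstream of its start. Psmg1 and Psmg2 had no peak of any list within 20 kb. Of the activators, Psme1, which encodes a subunit of the interferon-inducible ring that caps the core in place of the ATPase cap, had a PU.1 promoter peak in PU.1+ only (chr14:55578319-55578718), 19 bp upstream of an internal start and 396 bp from the 5′ end of the gene.

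CEBPA was called at more proteasome promoters than PU.1, and at nearly the same ones in both lines. Over all genes too, CEBPA promoter calls outnumbered those of PU.1 and were mostly shared between the lines. The CEBPA promoter peaks confined to their line were 18.8% (PU.1−) and 7.14% (PU.1+) at members, beside 28.2% and 11.1% over all genes. A CEBPA promoter peak was found at 15 members in PU.1− (30%, 17.9 to 44.6%), beside 19.4% of all genes, and at 13 members in PU.1+ (26%, 14.6 to 40.3%), beside 16%. All 13 were also called in PU.1− as shared peaks (14.6% of all genes had one). Promoter peaks of CEBPA confined to the PU.1− list were found at 3 members (6.04% of all genes) and those confined to the PU.1+ list at 1 (1.98%). The centres of the 13 shared pairs were 2 to 47 bp apart, with a median of 14 bp. The shared genes were Psma1, Psma5 and Psma7 of the alpha rings, Psmb1, Psmb2 and Psmb3 of the beta rings, the inducible Psmb10, Psmd4 (a ubiquitin receptor of the cap), the cap chaperone Psmd5, the core chaperone Psmg4, and all of Psme1, Psme2 and Psme3, the genes of the ring-shaped activators.

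The CEBPA peaks called in one line only were at Psmb3, Psmb4, Psmb6 and Psme1. The PU.1− peak of Psmb4, a non-catalytic beta subunit, was at chr3:94886380-94886779 in a coding exon, 165 bp downstream of a start. That of Psmb6, the constitutive subunit with caspase-like activity, was at chr11:70524717-70525116, 450 bp upstream of its start. Both genes thus had no CEBPA promoter peak in PU.1+. At Psmb3, another non-catalytic beta subunit, the peak seen in PU.1− alone (chr11:97702988-97703387) lay 211 bp upstream of the start, and a shared peak lay farther upstream, at 823 bp in PU.1− and 810 bp in PU.1+. At Psme1 the reverse was seen. A CEBPA peak called only in PU.1+ (chr14:55578834-55579233) lay 459 bp downstream of a start, in an intron, in addition to the shared peak upstream of the gene.

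**Figure D2:**
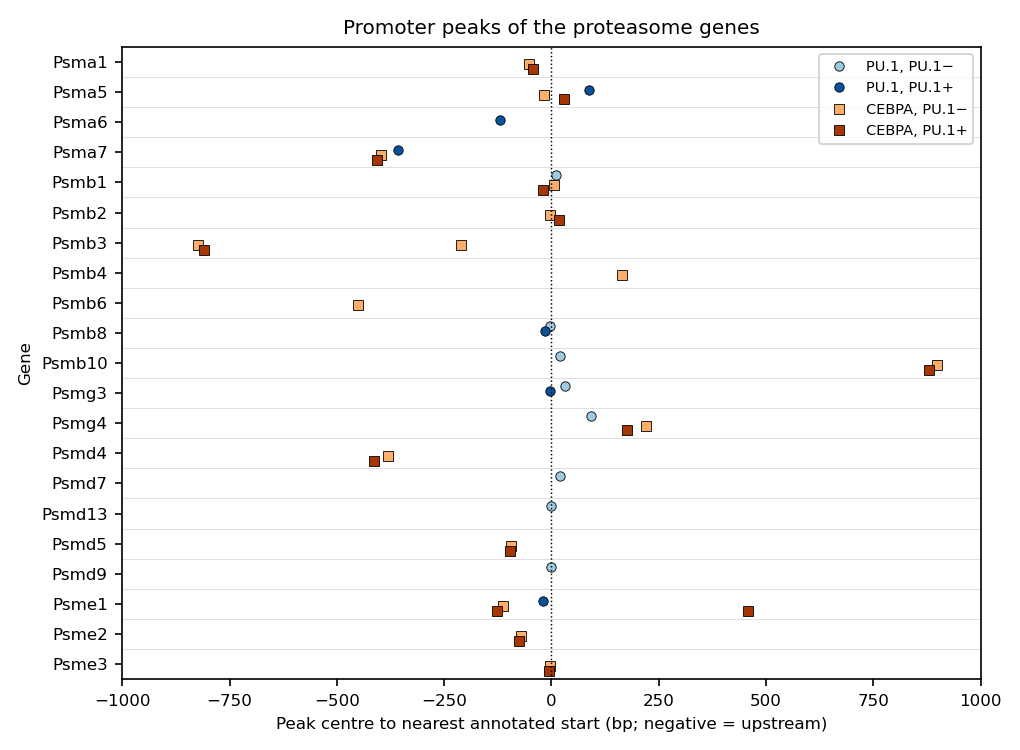
Position of each promoter peak of the proteasome genes. The horizontal axis gives the distance in bp from the peak centre to the nearest annotated transcript start (negative is upstream), circles are PU.1 and squares CEBPA, and light and dark colours are PU.1− and PU.1+. The CEBPA pairs nearly coincide, whereas most PU.1 peaks stand alone, as did most PU.1 promoter peaks of all genes.

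PU.1 promoter peaks of the proteasome genes lay close to a start, with a median distance of 14.5 bp for the 8 peaks in PU.1− and 53 bp for the 6 peaks in PU.1+, beside 89 and 259 bp for the promoter peaks of all genes. The CEBPA medians were 138.5 and 111.5 bp, beside 190.5 and 181.5 bp. The members had more annotated starts than other genes, with a median of 5 against 3, which enters both the chance of a promoter call and the distance. The 1000-bp limit cut between CEBPA peaks at 899 bp (Psmb10) and 1209 bp (Psmb1), and the nearest PU.1 peak outside it lay at 1439 bp (Psma7).

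To ask whether the factors met at the same promoters, PU.1 promoter peaks were compared with CEBPA peaks of the same line. In 6 members (12%, beside 6.11% of all genes) both antibodies gave a promoter peak in some line, namely Psma5, Psma7, Psmb1, Psmb10, Psme1 and Psmg4. In PU.1− only the PU.1 peak of Psmg4 overlapped a CEBPA peak, which is 1 of 50 members beside 2.63% of all genes, and 1 of 8 PU.1 promoter peaks beside 38.6%. In PU.1+ the PU.1 peaks of Psma5 and Psma7 did so, which is 2 members beside 2.35%, and 2 of 6 PU.1 promoter peaks beside 27.3%. At Psma5 and Psma7 the CEBPA peak was called in both lines and the PU.1 peak only in PU.1+. At Psmg4 the CEBPA peak was also called in both lines, and the PU.1 peak only in PU.1−. At Psmb10 the peaks of the antibodies lay apart, with CEBPA in a coding exon 899 bp downstream of a start in PU.1− and 880 bp in PU.1+. At Psmb1 they lay at different starts of the gene, and the CEBPA peak was also 143 bp (PU.1−) and 117 bp (PU.1+) from a start of Tbp, the gene of the TATA-binding protein.

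The sequences under the PU.1 promoter peaks were of several kinds. In the central 80 bp, GGAAGT was present in 4 of 8 peaks in PU.1− and 4 of 6 in PU.1+, beside 38.4% and 44.4% of the promoter peaks of all genes. CCGGAAGT, the form preferred by widely expressed ETS factors, was in 1 of 8 and 1 of 6 peaks, beside 4.7% and 1.17%. GAGGAAGT was in 0 of 8 and 1 of 6, beside 8.11% and 15.1%, and CAGGAAGT was in none, beside 6.9% and 5.58%. The composite GGAANNGAAA was in 1 of 8 peaks in PU.1− (Psmb8) and in 3 of 6 in PU.1+ (Psmb8, Psma7 and Psme1), beside 1.92% and 9.25%. PU.1 is known to bind such composites together with the lymphoid and myeloid IRF proteins. These counts are too small to set members apart from other genes.

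At Psmb8 and Psme1 the composite was preceded by a further repeat, which formed GAAANNGAAA, the core of the interferon response element. This sequence, also added after the peaks had been read, was found on either strand in the whole 400-bp PU.1 peaks of 5 of 8 members in PU.1− (Psmb8, Psmb10, Psmd7, Psmd9 and Psmg4) and 2 of 6 in PU.1+ (Psmb8 and Psme1), beside 4.7% and 8.02% of the promoter peaks of all genes. In the central 80 bp it was in 1 of 8 and 2 of 6, beside 1.35% and 2.92%. Apart from the sites at Psmb8 and Psme1, then, the matches lay in the flanks of the peaks. At Psmb8 and Psme1 the repeat can be read in the windows of these genes given earlier, and the flanking matches are printed here on the gene strand, in capitals with 10 bp on each side. Psmb10, an interferon-inducible gene, held 2 of them.
Psmb10, nearer site: gggtgggggtGAAAGCGAAAgtaggaagcg
Psmb10, farther site: cagcaaagacGAAAGTGAAAgagaagatgc
Psmd7: aaggcggttcTTTCCCTTTCtcaagatggc
Psmd9: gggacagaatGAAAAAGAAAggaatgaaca
Psmg4: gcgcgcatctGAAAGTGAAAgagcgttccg

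These lay at chr8:105938109-105938138 and chr8:105938166-105938195 (Psmb10, minus strand), chr8:107588529-107588558 (Psmd7, minus), chr5:123228021-123228050 (Psmd9, plus) and chr13:34162969-34162998 (Psmg4, plus). The distance from the match to the peak centre was 53 and 110 bp at Psmb10, 105 bp at Psmd7, 153 bp at Psmd9 and 71 bp at Psmg4, against 24 bp (PU.1−) and 4 bp (PU.1+) at Psmb8 and 11 bp at Psme1.

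Under the CEBPA promoter peaks, the CEBP sequence TTGCNNAA was in the central 80 bp of 2 of 16 peaks in PU.1− and 1 of 14 in PU.1+, beside 28% and 30.9% of the promoter peaks of all genes. Over all CEBPA peaks in the bodies or within 20 kb of the members, it was in 24 of 77 (31.2%) and 24 of 67 (35.8%). The promoter peaks of the members thus held the sequence at a lower share than all CEBPA peaks around these genes did, but the counts are small. The direction was the same genome-wide, with 28% and 30.9% of promoter peaks against 35.6% and 38.2% of all CEBPA peaks. In the whole 400 bp the sequence was in 4 of 16 and 4 of 14 of the members' promoter peaks, beside 40.6% and 43.1% of those of all genes. CCAAT, the box bound by the NF-Y complex, was in the central 80 bp of 4 of 16 and 3 of 14 promoter peaks, beside 12.8% and 13.7%.

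The same sequences were counted in RefSeq promoters (GRCm38), which span 250 bases before to 50 after each start, wherever the peaks lay. A promoter was found for 42 of the 50 members, with 45 promoters in all, and 21263 promoters for protein-coding genes. GGAAGT was in 48.9% of the members' promoters against 24.8% of all, and CCGGAAGT in 22.2% against 5.15%. GAGGAAGT was in 6.67% against 3.13%, CAGGAAGT in 2.22% against 3.24%, TTGCNNAA in 8.89% against 10.2% and CCAAT in 33.3% against 38.2%. TGACNNNGC, the core of the element read by Nfe2l1, which is known to activate proteasome genes when proteasome activity falls, was in 13.3% against 13%. GGAANNGAAA was in 4.44% against 2.53% and GAAANNGAAA in 11.1% (5 of 45) against 3.35%. Both of these sequences were chosen after the members' peaks had been read, so their shares are not independent of the peaks. The GAAANNGAAA matches of Psmd9, Psme1 and Psmg4 are sites already seen in those peaks. The members' promoters had a median GC content of 57.3% against 56.3% and a median ratio of observed to expected CpG of 0.734 against 0.567, and the part of base composition in the motif shares was not tested.

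**Figure D3:**
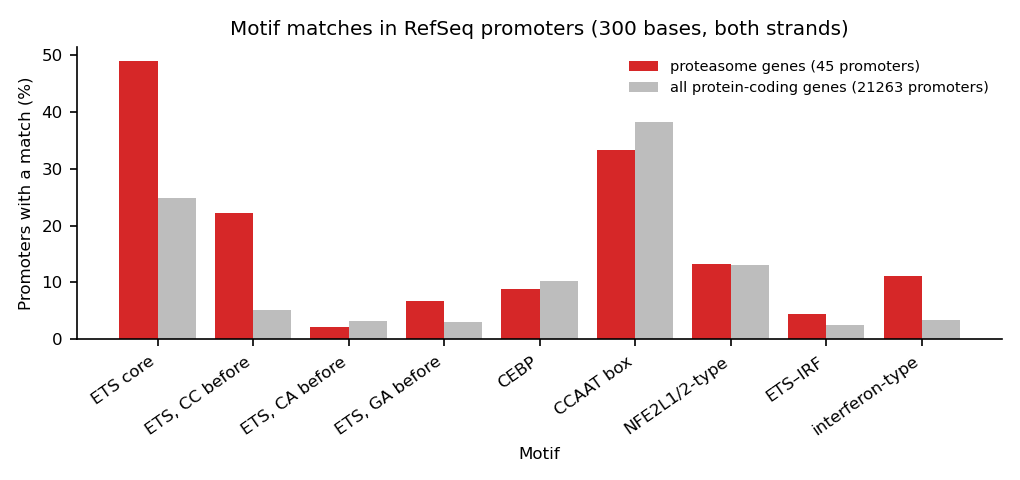
Share of RefSeq promoters (vertical axis, %) with at least 1 match, on either strand, to each sequence (horizontal axis), for the 45 promoters of the proteasome genes (red) and the 21263 of all protein-coding genes (grey). The ETS core and its CCGGAAGT form stand at 48.9% and 22.2% of the proteasome promoters, whereas the CEBP, CCAAT and Nfe2l1-type bars are near those of all genes.

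Within the members, the RefSeq promoters of genes with and without a PU.1 promoter peak were counted apart. The RefSeq window does not always cover the peak. The sites printed above for Psmb8 and Psma5 lay outside it, and so did the whole PU.1 peaks of Psma7 and Psmb10. The counts therefore cannot show whether the ETS core goes with a PU.1 call. GGAAGT was in the promoter of 4 of the 10 genes that had a PU.1 promoter peak and a RefSeq promoter, and of 16 of the 32 without a peak. CCGGAAGT was in 3 of 10 and 6 of 32, and the 6 included Psmc1 and Psmc2 of the ATPase ring, which had no PU.1 peak within 20 kb in either line. GAAANNGAAA was in 3 of 10 (Psmd9, Psme1 and Psmg4) and 2 of 32 (Psmb3 and Psmd4). A match is a stretch of letters and does not show a binding site.

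In the wider regions around the genes, the order of the lines was the reverse of that at promoters. A PU.1 peak in the body or within 20 kb was called at 18 members in PU.1− (36%, 22.9 to 50.8%), beside 23.7% of all genes, and at 26 in PU.1+ (52%, 37.4 to 66.3%), beside 41.4%. The higher share of members in PU.1+ did not hold in narrower regions. It was 13 of 50 members (26%) within 5 kb, beside 28.4% of all genes, and likewise 13 when each peak was given only to its nearest protein-coding gene, beside 28.1%. The 20-kb regions held 22 separate PU.1 peaks in PU.1− against 42 in PU.1+, with 12 shared. The positions of the peaks differed. In PU.1−, 8 of the 22 peaks were at a member's start, 6 at the start of another protein-coding gene, 1 elsewhere inside a member and 7 in the remaining sequence. In PU.1+, 6 of 42 were at a member's start, 6 at the start of another gene, 4 elsewhere inside a member and 26 in the remaining sequence. Of the 42 peaks, 30 (71.4%) were called only in PU.1+, beside 80.6% of the PU.1+ peaks placed at all genes in this way.

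PU.1 peaks were more numerous in PU.1+ at 18 members (36%, beside 32.5% of all genes) and fewer at 4 (8%, beside 6.2%). The 4 were Psmb1, Psmb10 and Psmd7, whose single peak was the promoter peak described above, and Psmc5, a cap ATPase with 1 PU.1 peak in PU.1−, which lay 177 bp from a start of Smarcd2. At 12 members a PU.1 peak was called within 20 kb in PU.1+ where there was none in PU.1−, namely Psma1, Psma7, Psmb2, Psmb3, Psmb4, Psmb6, Psmb7, Psmc6, Psmd10, Psmd14, Psme1 and Psme2. This was 24% of members beside 22.6% of all genes, so the list was near the background. It included 5 of the 7 constitutive beta genes, too small a class to read a difference from. The peak counted for Psmb6 lay 127 bp from a start of Pld2 and 13411 bp from the nearest start of Psmb6. Those of Psmb2, Psmb3 and Psmb4 lay outside the genes, at 16589, 6408 and 16070 bp from the nearest start. Of these beta genes, only Psmb7 had a PU.1+ peak inside the gene. At 14 members (28%, beside 18.8% of all genes) both lines had a PU.1 peak.

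For CEBPA, a peak in the body or within 20 kb was called at 38 members in PU.1− (76%, 61.8 to 86.9%), beside 56.5% of all genes, and at 35 in PU.1+ (70%, 55.4 to 82.1%), beside 51.3%. The separate peaks numbered 77 and 67, with 58 shared. CEBPA peaks were fewer in PU.1+ at 14 members (28%, beside 26.7% of all genes) and more numerous at 8 (16%, beside 6.72%). The 8 were Psma7, Psmb8, Psmb9, Psmc3, Psmd11, Psmd13, Psme1 and Psme2. The added peak was the same one for Psmb8 and Psmb9, and likewise for Psme1 and Psme2. Of the 67 separate peaks in PU.1+, 9 (13.4%) were called only there, beside 11.5% at all genes, which is near the background. Within 20 kb, CEBPA was called in PU.1− alone at Psmb4, Psmb6, Psmc1 and Psmd8 (8%, beside 7.36% of all genes), and in PU.1+ alone at Psmb9 (2%, beside 2.1%), both near the background. In PU.1+, 12 of the 67 CEBPA peaks (17.9%) overlapped a PU.1 peak, against 7 of 77 (9.09%) in PU.1−, beside 21.5% and 11.5% of the CEBPA peaks placed at all genes.

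Summed over the lists of both lines, so that a shared site counted in each, the members with the most PU.1 peaks were Psma5, Psmb9 and Psmc3. The order depends on that sum, since Psma3 followed with 4 peaks, none of them shared, whereas 2 sites of Psmc3 were shared. Psma5 had 1 PU.1 peak in PU.1− and 5 in PU.1+. The PU.1− peak was shared and lay 41422 bp from the 5′ end of the gene, downstream of it, and the PU.1+ peaks were at the promoter, in an intron 2613 bp into the gene, and at 3 places downstream of the gene. Psma5 also had the most CEBPA peaks, 5 in each line, all of them shared. One of the downstream PU.1+ peaks (chr3:108286209-108286608) covered the same 400 bp as a CEBPA peak in PU.1+, and the CEBPA peak there was already called in PU.1−, with its centre 2 bp away.

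Psmc3, an ATPase of the cap, had 2 PU.1 peaks in the PU.1− list and 3 in the PU.1+ list, but none lay inside the gene. Its neighbourhood includes Spi1, the gene of PU.1 itself. A shared PU.1 peak at chr2:91082891-91083290 in PU.1− and chr2:91082889-91083288 in PU.1+ lay at a start of Spi1 and overlapped a shared CEBPA peak, and the other shared peak lay at a start of Slc39a13, a zinc transporter gene. The third peak, called only in PU.1+ (chr2:91084528-91084927), lay farther along on the side of Spi1. The peaks counted for Psmc3 were thus those of its neighbours.

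Psmb9, the inducible subunit that replaces the caspase-like one, had 2 PU.1 peaks in the PU.1− list and 3 in the PU.1+ list. It lies beside Psmb8 in the major histocompatibility complex, next to Tap1 and Tap2, which encode the peptide transporter of antigen presentation. The shared peak counted for Psmb9 was the promoter peak of Psmb8, 10610 bp upstream of the nearest start of Psmb9 in PU.1−. Between the end of Psmb9 and the PU.1− peak beyond it, PU.1+ had 2 peaks of its own, at chr17:34174066-34174465 and chr17:34180513-34180912. The second was centred 7051 bp from the 5′ end of Psmb9, past the end of the gene. A CEBPA peak called only in PU.1+ lay beside it, at chr17:34180005-34180404, and the intervals did not overlap. This was the only CEBPA peak of Psmb9 and 1 of the 2 CEBPA peaks of Psmb8 in PU.1+. In PU.1−, a separate PU.1 peak called in that line only lay farther out, at chr17:34171138-34171537.

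The other interferon-responsive pair, Psme1 and Psme2, lies on chromosome 14 on either side of Emc9. In PU.1− no PU.1 peak was called within 20 kb of either gene. In PU.1+ Psme1 had 1, the promoter peak with the composite sequence, and Psme2 had 2, the same peak and one at chr14:55603944-55604343 at a start of Irf9, which encodes a subunit of the interferon-stimulated factor. CEBPA peaks numbered 4 in PU.1− and 5 in PU.1+ at Psme1, and 3 and 4 at Psme2, and the difference in each gene was the single peak in the intron of Psme1 at chr14:55578834-55579233. At Psme1 the PU.1 peak and this CEBPA peak, both absent from PU.1−, did not overlap.

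**Figure D4:**
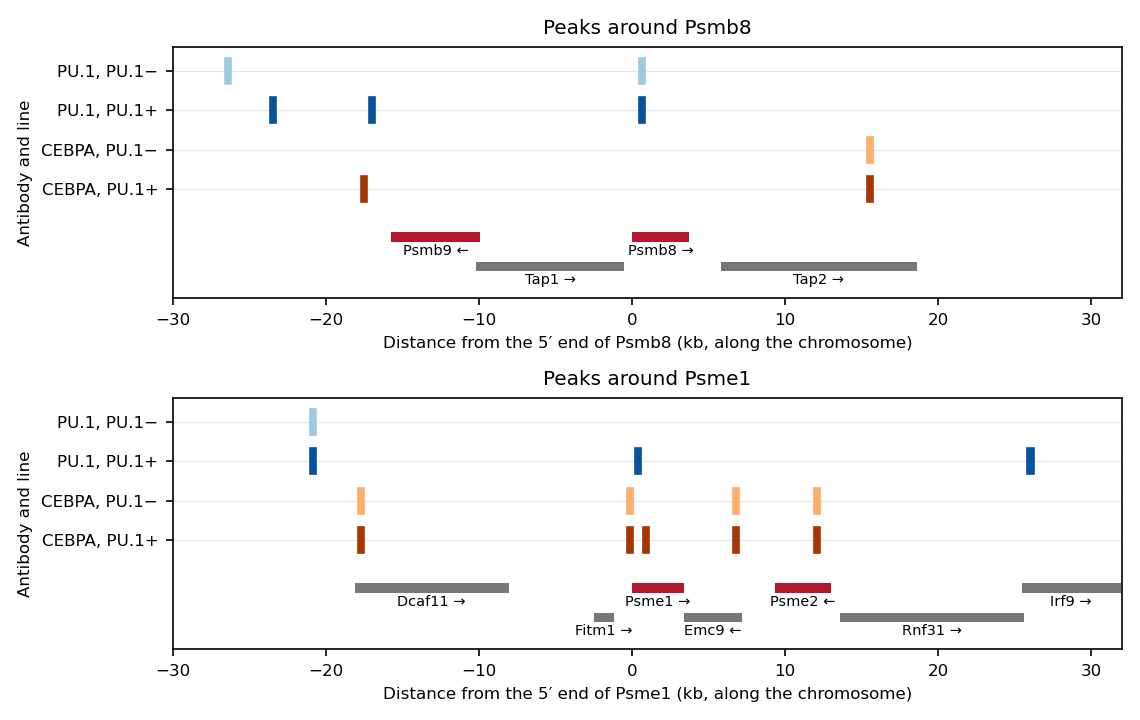
Peaks of the 4 lists around Psmb8 (top) and Psme1 (bottom), with the distance in kb from the 5′ end of each gene along the chromosome on the horizontal axis. Coloured marks are 400-bp peaks, red bars are proteasome genes and grey bars neighbouring genes, and arrows show the direction of transcription. Psmb8 has a PU.1 mark in both lines at its start, whereas the PU.1 mark at Psme1 is present in the PU.1+ track only.

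By the same sum, the members with the most CEBPA peaks after Psma5 were Psme1 and Psmd12. Psmd12, a lid subunit, had 4 CEBPA peaks in each line and no PU.1 peak in either. In each line 3 of them were shared, and the fourth in PU.1+ (chr11:107470564-107470963) was absent from PU.1− and lay 8720 bp upstream of the nearest start of Psmd12 and at a start of Pitpnc1. No peak of any list was called in the body or within 20 kb of 9 members (18%, beside 34.5% of all genes). These were Psma4 of the alpha ring, Psma8, a testis-expressed relative of Psma7, the ATPase gene Psmc4, the cap subunit gene Psmd6, Psme2b, a close copy of Psme2, the large nuclear activator gene Psme4, the inhibitor gene Psmf1, and Psmg1 and Psmg2. How reads that match both Psme2 and Psme2b were placed is not given in the sources used here, so the lack of a peak at Psme2b is uncertain.

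The proteasome genes were then set beside gene groups that, like most of them, are expressed in nearly every cell. In PU.1−, PU.1 promoter peaks were called at 16% of proteasome genes, 17.1% of 82 cytosolic ribosomal protein genes and 10.5% of 86 respiratory chain genes. In PU.1+ the shares were 12%, 3.66% and 3.49%. All 3 groups thus had lower shares in PU.1+ than in PU.1−, against a higher share over all genes. Proteasome genes had the smallest difference, but the exact 95% intervals of the groups in PU.1+ overlapped (4.53 to 24.3%, 0.761 to 10.3% and 0.725 to 9.86%). For CEBPA the shares of the groups lay close together, at 30%, 30.5% and 29.1% in PU.1− and 26%, 24.4% and 24.4% in PU.1+. Another protein-coding gene started within 1000 bp of a start of 14 members (28%, beside 14.6% of all genes), and the median length of the members was 11638 bp against 17403 bp.

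**Figure D5:**
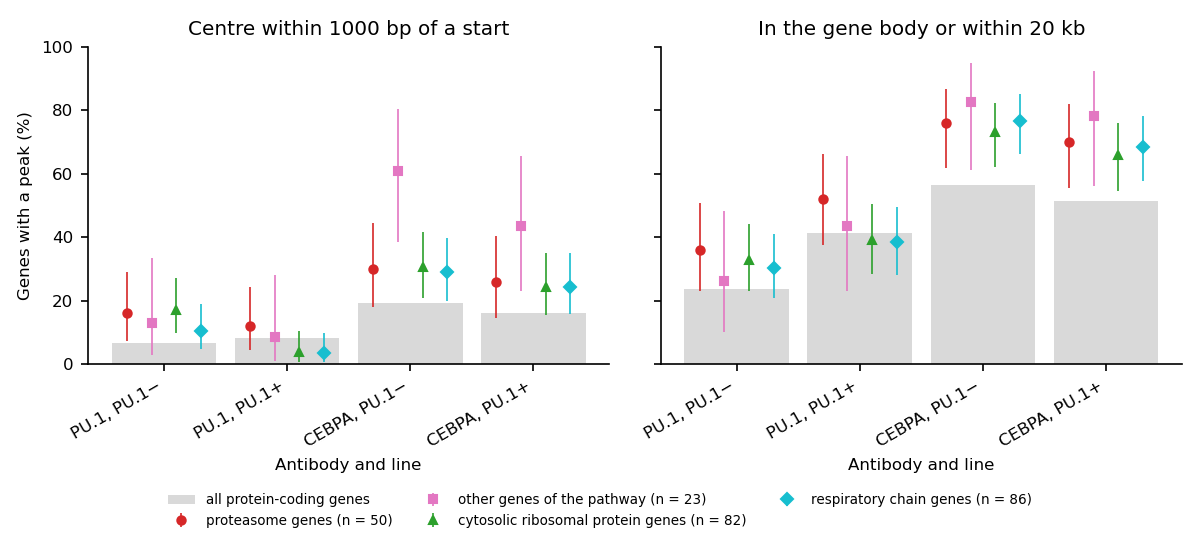
Share of genes (vertical axis, %) with a peak at a start (left) and in the body or within 20 kb (right) for each antibody and line (horizontal axis). Grey bars are all 21951 protein-coding genes, symbols are the proteasome genes and 3 other gene groups, and error bars are exact 95% intervals over genes. At promoters the PU.1 shares of ribosomal and respiratory chain genes are 17.1% and 10.5% in PU.1− and 3.66% and 3.49% in PU.1+, and those of proteasome genes are 16% and 12%.

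Of 24 further genes of the pathway, which encode ubiquitin, shuttle factors, associated enzymes and regulators of proteasome genes, 23 were found in the annotation. A PU.1 promoter peak was called at 3 of 23 in PU.1− (13%, beside 6.8% of all genes) and 2 in PU.1+ (8.7%, beside 8.19%). In PU.1− they included Adrm1, a ubiquitin receptor of the cap, and Uchl5, the deubiquitinase that Adrm1 recruits, and in PU.1+ Sem1, a small cap subunit. A CEBPA promoter peak was called at 14 in PU.1− (60.9%, 38.5 to 80.3%), beside 19.4% of all genes. In PU.1+ it was called at 10 (43.5%, 23.2 to 65.5%), beside 16%. Ubb, Rps27a, Vcp, Rad23b and Nfe2l1 had one in both lines. Nfe2l2, a relative of Nfe2l1, had 5 CEBPA peaks within 20 kb in each line but none at a start. Pomp, the chaperone that matures the core, had a CEBPA promoter peak in PU.1− only, and Usp14, Ubqln2 and Zfand5 had no peak of either antibody within 20 kb.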

How the data were processed

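The authors aligned reads to mm10 with Bowtie2 2.0.6 and called peaks with MACS2 2.0.10, according to the submitters' processing notes, and deposited 1 list of intervals per library, without scores. Of 8 samples, the 4 with PU.1 or CEBPA antibodies were used and those with H3K27Ac antibody or IgG were not analysed here. The calling threshold and the step that set every width to 400 bp are not given in the sources used here. Samples were grouped by antibody and line from their labels. Members came from GENCODE M21, and the members, lists and sequences searched were chosen with earlier results of these data known. Peaks were placed by centre, motifs were exact matches on both strands, and shares have exact Clopper-Pearson 95% intervals, for counting error only. No test was possible with 1 library per antibody and line. Positions are given for every member with a PU.1 promoter peak or a CEBPA promoter peak called in 1 line only, and the 3 members with the most peaks per antibody and those without a peak are named. Other positions and genes were chosen after their values were seen. Placement, overlap and motif steps each recovered 100% of planted cases in simulated data. Alternatives changed the promoter distance (500 and 2500 bp), the starts used, the overlap (50% of both peaks, or centres within 100 bp), the range (5 and 50 kb), assignment to the nearest gene and the inclusion of Psmc3ip. Python 3.11.15, numpy 2.4.6, scipy 1.17.1 and samtools 1.23.1 were used.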

Additional observations from a re-analysis of the deposited data

How the results depend on the processing

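Of 92 alternative counts for 16 results, 83 were within 1.5 times of the main count and 56 were unchanged. These are counts of members, and the share of all genes moved with the setting. With a promoter distance of 2500 bp, a PU.1 promoter peak in PU.1+ was still at 6 members (12%), but beside 12.9% of all genes. One called only in PU.1+ was still at 4 (8%), but beside 10.3%. Both shares of members were then below those of all genes. The counts beyond 1.5 times concerned PU.1. Members with a PU.1 peak in the body or within 20 kb numbered 18 (PU.1−) against 26 (PU.1+). Within 5 kb they numbered 11 against 13 (15.7% and 28.4% of all genes), with each peak given to the nearest gene only 10 against 13 (14.5% and 28.1%), and within 50 kb 30 in PU.1− (35.8%). Both narrower settings put the members in PU.1+ below the share of all genes. These settings narrow or widen the region by construction. Leaving out Psmc3ip could change only the counts of CEBPA peaks within 20 kb, since it had no other peak. Its other counts are thus unchanged by construction. Members with a PU.1 promoter peak called only in PU.1+ were 2 instead of 4 with the 5′ end of the gene only. PU.1 promoter peaks overlapping CEBPA in PU.1+ were at 1 member instead of 2 with that rule and with starts of protein-coding transcripts only, and in PU.1− at 0 instead of 1 when centres had to lie within 100 bp. No paired analysis was possible because the results come from no test. The absence of read counts limits every comparison between lists, since depth cannot be separated from binding.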
